A study of Mus musculus with 12 samples.

Results

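Transcripts of 9 genes that mark the cells of blood vessel walls were followed in 12 spinal cord libraries. Cldn5, Pecam1 and Flt1 were taken as endothelial genes, Pdgfrb, Rgs5 and Cspg4 as pericyte genes, and Acta2, Tagln and Myh11 as smooth muscle genes. The rule takes these genes by name, and all 9 were found among the 38924 genes in each library. All 9 passed the filter on low counts, which left 17765 genes for testing.

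The libraries came from polyadenylated RNA of whole spinal cord of mice aged 8 weeks on the B6J.Cg background. C201R mice are heterozygous for the C201R change in Gars, which encodes glycyl-tRNA synthetase and in which dominant mutations cause a peripheral neuropathy. Each library carries 2 statements of genotype, which disagree in 4 of the 12. By library name, libraries 1, 2, 3, 4, 9 and 10 are C201R, and libraries 5, 6, 7, 8, 11 and 12 are wild type (WT). By title, libraries 1, 2, 3, 10, 11 and 12 are C201R, and libraries 4, 5, 6, 7, 8 and 9 are WT, each genotype with 3 females and 3 males. The genotype tag follows the titles. On 8 libraries both statements are the same, which gives 4 undisputed C201R libraries (1, 2, 3 and 10) and 4 undisputed WT libraries (5, 6, 7 and 8). The library number stands in the titles, and nothing says what it orders. Whether every library is from its own animal is not stated, and p-values therefore reflect variation among libraries.

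Total expected counts ran between 27175421 in library 8 and 38271405 in library 9. Gars itself, the targeted gene, did not overlap between groups by library name, with 143.3 to 154.7 CPM (read counts relative to library size) in C201R libraries and 129.8 to 142.2 CPM in WT libraries. By library name Gars rose by 0.15 ± 0.03 on the log2 scale (SE, edgeR adjusted p = 0.0343), and by title its groups overlapped (log2 difference 0.03 ± 0.05, edgeR adjusted p = 0.934). A change of 1 residue need not alter a transcript's level, so this does not decide between the labels. Xist, the RNA that coats the inactive X chromosome of females, lay between 522.5 and 685.4 CPM in libraries 1, 2, 3, 8, 11 and 12 and at 0.22 CPM or below in the other libraries, which goes against the titled sex of 6 libraries. Libraries high in Xist make up 3 of 6 C201R and 3 of 6 WT libraries by library name, 5 of 6 C201R and 1 of 6 WT by title, and 3 of 4 C201R and 1 of 4 WT among the undisputed. The main comparisons carry titled sex as a term, and the Xist level in its place was added as an alternative after seeing the data.

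Blood vessels of the spinal cord are lined by endothelial cells joined by tight junctions, which form the blood-brain and blood-spinal cord barrier. Capillary endothelium is wrapped by pericytes, which it recruits by releasing PDGF-B onto the receptor PDGFRβ, while arterioles carry rings of contractile smooth muscle. Contractile genes of smooth muscle are classically driven by serum response factor and its partner myocardin at a short AT-rich promoter element, the CArG box. In whole tissue, fewer cells of a type and less RNA per cell cannot be told apart.

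Acta2 had the widest spread of the 9 over libraries, and its promoter is shown beside that of Myl9, the regulatory light chain of smooth muscle myosin. Myl9 was picked because it alone of 12 smooth muscle list genes with a promoter entry held the element described here, which is about the share over all promoters given below. These are the 250 bases before the RefSeq start (build GRCm38.p6), written 5′ to 3′ on the gene's strand. Acta2 lies at chr19:34255374-34255623 on the minus strand and Myl9 at chr2:156775214-156775463 on the plus strand. Capitals mark each CArG box (CC, then 6 bases of A or T, then GG, read on both strands) found with at most 1 C or G among the 6.
Acta2: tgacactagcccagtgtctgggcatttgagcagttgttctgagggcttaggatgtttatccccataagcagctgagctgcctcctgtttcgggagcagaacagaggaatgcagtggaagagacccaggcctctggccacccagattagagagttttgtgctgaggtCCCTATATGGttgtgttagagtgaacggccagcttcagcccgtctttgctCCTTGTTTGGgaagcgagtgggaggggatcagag
Myl9: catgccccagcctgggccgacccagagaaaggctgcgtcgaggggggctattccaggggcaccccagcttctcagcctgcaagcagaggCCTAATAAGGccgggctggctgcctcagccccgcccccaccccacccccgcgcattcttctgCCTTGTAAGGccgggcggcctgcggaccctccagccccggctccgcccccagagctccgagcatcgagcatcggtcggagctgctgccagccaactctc
In Acta2 the matches stand 84 to 75 and 34 to 25 bases before the start, each with 1 C or G. In Myl9 they stand 161 to 152 bases before it, with none, and 99 to 90 bases before it, with 1. These distances hold for the RefSeq start. In the GENCODE M21 annotation Acta2 starts at 34255590, inside the window shown, and the Acta2 matches lie within that gene span. A match of this kind occurs in 8.59% of 32851 RefSeq promoter windows of the same length, and a strict one in 1.47%. Promoter entries were matched for Cldn5, Flt1, Rgs5, Cspg4 and Acta2, and of these 5 genes Acta2 alone held a match. A match describes these letters and is not a measured binding site.

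Per unit of transcript length, the vascular genes spanned about an order of magnitude. Rgs5 was highest, at 71.8 ± 5.61 TPM (reads scaled by transcript length and library; SD, n = 12 libraries), followed by Cldn5 at 48.4 ± 9.97 TPM and Flt1 at 28.0 ± 2.27 TPM. The ranges of these 3 genes and of Pecam1 (16.0 ± 2.18 TPM) did not overlap, so their order was the same in every library. Below them the ranges of neighbours overlapped: Acta2 averaged 15.5 ± 4.38 TPM, Tagln 15.2 ± 2.93 TPM and Pdgfrb 10.4 ± 1.56 TPM. Cspg4 at 8.15 ± 0.785 TPM and Myh11 at 6.02 ± 1.38 TPM came last. Acta2 was above Tagln in 7 of 12 libraries, whereas Pdgfrb was above Cspg4 in all 12.

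The spread over libraries differed between the genes. Acta2 had a coefficient of variation of 27.7% in CPM over the 12 libraries, Myh11 of 22.5%, Cldn5 of 19.1% and Tagln of 18.6%. The median over all tested genes was 7.97%, close to Rgs5 (8.88%), Cspg4 (8.96%) and Flt1 (7.43%). Pdgfrb at 14.3% and Pecam1 at 11.5% stood between.

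By library name, none of the 9 vascular genes passed an adjusted p of 0.05, where 0.715% of all tested genes did (127 of 17765). Of the 9 log2 differences, 8 were above 0, against 50.9% of all genes. Their median was 0.16, against 0.00 over all genes. Also above 0 were 7 of 7 red cell genes (median 0.70), 7 of 7 adipocyte genes (2.61) and 6 of 6 platelet genes. Adipocyte genes summed to 675.7 TPM in C201R library 3, against 75.9 TPM or less in all other libraries. Below 0 were 6 of 8 Schwann cell genes and 5 of 6 oligodendrocyte genes. The part of these lists in the vascular values was not tested. At an unadjusted p under 0.05 there were 3 of the 9 (Acta2, Myh11 and Pdgfrb), against 12.8% of all genes, and edgeR adjusted p-values lay between 0.218 and 0.852. DESeq2 called none of the 9 either.

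**Figure D1:**
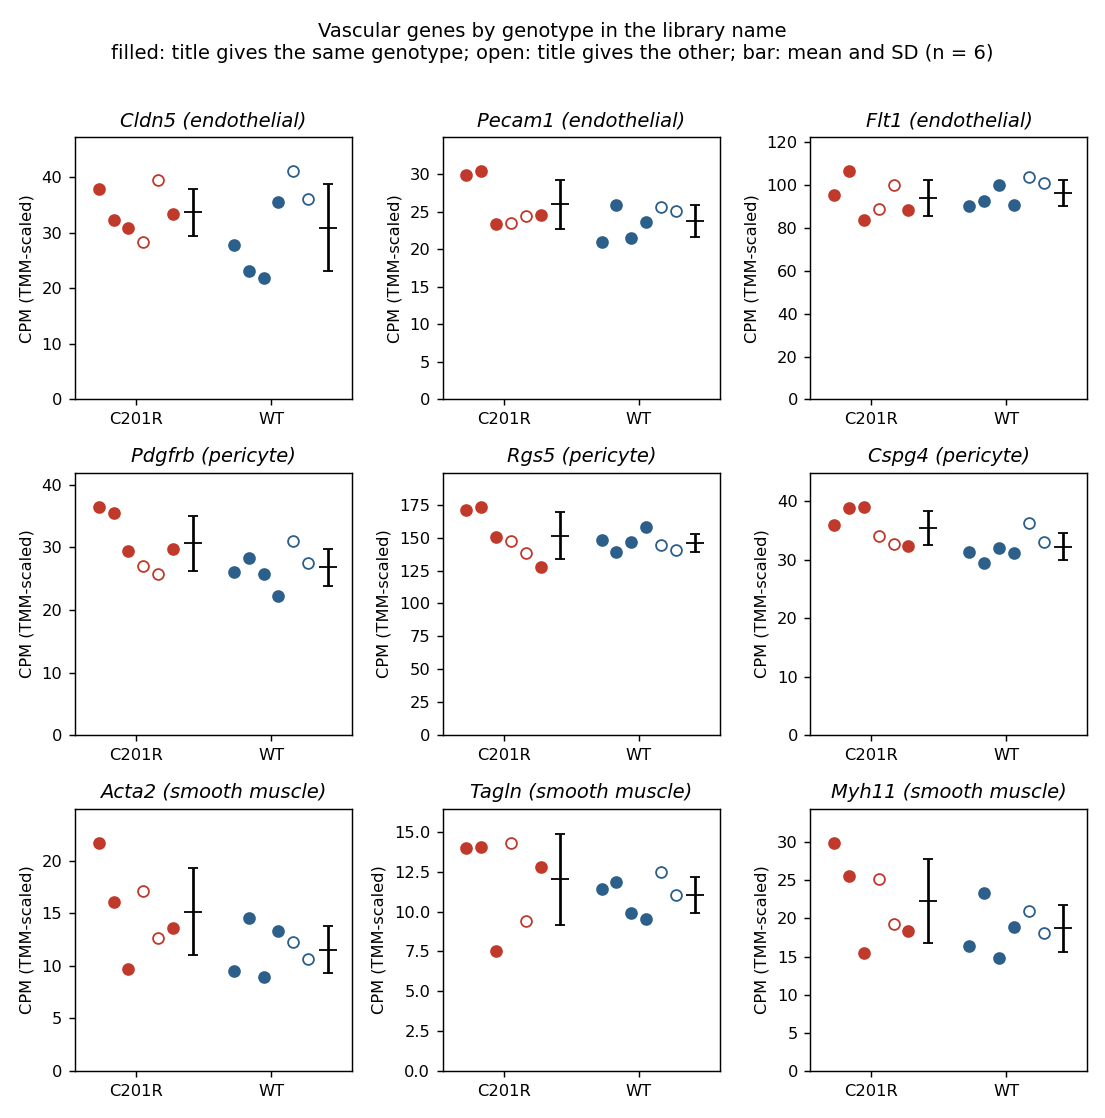
CPM of the 9 vascular genes (y axes from 0) by genotype in the library name, with 1 point per library in order of library number and the mean with SD (n = 6) beside them. Open points are libraries whose title gives the other genotype. C201R and WT libraries overlap in every panel, and Acta2 has its highest value, 21.7 CPM, in a C201R library.

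Among the endothelial genes, Cldn5 encodes claudin-5, the main claudin of the barrier's tight junctions (chr16:18776847-18778262, plus strand; GENCODE M21 on GRCm38 for this and the following positions). Its lowest, median and highest values were 28.3, 32.7 and 39.4 CPM in C201R libraries and 21.8, 31.6 and 41.0 CPM in WT libraries. WT libraries spanned the whole range of the gene, with libraries 6 and 7 lowest and library 11 highest, and the C201R libraries lay inside it. Its fitted log2 difference was 0.15 ± 0.16 (SE, edgeR adjusted p = 0.771). It was 0.01 without library 7, 0.26 without library 8 and 0.34 with the library number as a term.

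Pecam1 encodes the adhesion molecule CD31, found along endothelial cell borders (chr11:106654217-106750628, minus strand). It had 23.35, 24.4 and 30.35 CPM (lowest, median, highest) in C201R libraries, against 20.9, 24.4 and 25.8 CPM in WT libraries. C201R libraries 1 and 2 stood above all others and the remaining libraries overlapped. Its log2 difference was 0.16 ± 0.09 (edgeR adjusted p = 0.489), or 0.09 without library 1 and 0.04 without libraries 1 to 3.

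Flt1, which encodes the VEGF receptor VEGFR1 (chr5:147561604-147726011, minus strand), had the lowest coefficient of variation of the 9 in CPM, though not in TPM, where Rgs5 was lower (7.82% against 8.13%). Values of 83.8, 92.1 and 106.3 CPM in C201R libraries stood against 90.3, 96.1 and 103.8 CPM in WT libraries. The C201R libraries held both its lowest value and its highest. Its log2 difference of -0.04 ± 0.06 was the one below 0 (edgeR adjusted p = 0.852), and it lay at 0.01 on log2(TPM + 1) with limma and between -0.07 and -0.01 without single libraries.

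Pdgfrb encodes PDGFRβ, the receptor through which pericytes are recruited (chr18:61045150-61085061, plus strand). It had 25.8, 29.5 and 36.4 CPM in C201R libraries and 22.2, 26.7 and 31.1 CPM in WT libraries. Libraries 1 and 2 again stood above the rest. The log2 difference was 0.25 ± 0.10 (edgeR adjusted p = 0.298), and without libraries 1 to 3, an alternative chosen after seeing the data, it was 0.09 ± 0.09 (edgeR adjusted p = 0.747).

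Rgs5, a regulator of G-protein signalling that is abundant in pericytes (chr1:169655501-169695813, plus strand), had 127.6, 149.1 and 173.1 CPM in C201R libraries, against 138.7, 145.3 and 157.8 CPM in WT libraries. The C201R libraries included both extremes, library 2 above and library 10 below all WT libraries. Its log2 difference of 0.06 ± 0.07 (edgeR adjusted p = 0.816) turned to -0.06 with the library number as a term, to -0.01 without library 1 and to -0.09 without libraries 1 to 3.

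Cspg4 encodes the proteoglycan NG2, which pericytes share with oligodendrocyte progenitor cells (chr9:56865033-56899870, plus strand). It had 32.4, 34.95 and 38.95 CPM in C201R libraries, against 29.5, 31.6 and 36.2 CPM in WT libraries. C201R libraries 2 and 3 were highest and the groups overlapped through WT libraries 11 and 12. Its fitted log2 difference was 0.14 ± 0.06 (edgeR adjusted p = 0.391). Of 12 progenitor markers, 11 were tested, 0 passed and 3 lay above 0, with a median of -0.03. Their summed level was 554.1 to 658.3 TPM in C201R libraries and 565.7 to 673.8 TPM in WT libraries. Its part in the Cspg4 values was not tested.

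Acta2 encodes the actin of vascular smooth muscle (chr19:34241090-34255590, minus strand), and its promoter is the one shown above. Lowest, median and highest values were 9.72, 14.8 and 21.7 CPM in C201R libraries and 8.93, 11.45 and 14.6 CPM in WT libraries. Libraries 1, 4 and 2 stood above all WT libraries, and C201R library 3 lay below 4 of the 6. Its log2 difference of 0.48 ± 0.16 was the widest of the 9 and had the lowest adjusted p (edgeR adjusted p = 0.218, DESeq2 adjusted p = 0.0849), and over the 22 alternatives it ran between 0.35 and 0.66.

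Myh11 encodes the smooth muscle myosin heavy chain (chr16:14194535-14291372, minus strand). It had 15.4, 22.2 and 29.9 CPM in C201R libraries, against 14.8, 18.4 and 23.3 CPM in WT libraries. The same libraries, 1, 2 and 4, were highest. Its log2 difference was 0.36 ± 0.13 (edgeR adjusted p = 0.276), and 0.25 ± 0.15 with the Xist level in place of titled sex (edgeR adjusted p = 0.541).

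Tagln encodes transgelin, or SM22, an actin-binding protein of smooth muscle (chr9:45929619-45936058, minus strand). It had 7.53, 13.4 and 14.3 CPM in C201R libraries and 9.51, 11.2 and 12.48 CPM in WT libraries. Library 3 was the lowest of all and libraries 4, 2 and 1 the highest, so that C201R libraries spanned the WT range on both sides. Its fitted log2 difference was 0.23 ± 0.13 (edgeR adjusted p = 0.508), and 0.12 ± 0.15 with the Xist level (edgeR adjusted p = 0.802). Over whole gene spans, introns included, Tagln overlaps the antisense gene Gm48529 over 3627 bases and Pcsk7 over 108 bases, both on the other strand. The strand setting of the counting is not given in the sources used here. Expected counts of Tagln were whole in all 12 libraries. Whether reads of the overlapping genes entered its values was not tested.

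By title none of the 9 passed, where 0.0% of all tested genes did (0 of 17765 by edgeR, 18 by DESeq2, and 1202 at an unadjusted p under 0.05). All 9 differences lay above 0, against 50.7% of all genes, with a median of 0.14. In the same comparison 12 of 12 meningeal fibroblast genes (median 0.36), 7 of 7 red cell genes (0.40) and 7 of 8 Schwann cell genes (0.18) were also above 0, and their part in the vascular values was not tested. At an unadjusted p under 0.05 there were Pdgfrb, Cspg4 and Pecam1, against 6.77% of all genes. Pdgfrb had the lowest p of the 9, with 27.4, 30.4 and 36.4 CPM in C201R libraries and 22.2, 25.9 and 28.2 CPM in WT libraries. Only WT library 6 exceeded the lowest C201R library, 12, and the log2 difference was 0.29 ± 0.07 (edgeR adjusted p = 0.576).

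Moving the 4 disputed libraries between groups changed which genes differed most. Acta2 differed by 0.14 ± 0.20 on the log2 scale by title (edgeR adjusted p = 0.935), against 0.48 ± 0.16 by library name, and Myh11 by 0.13 ± 0.15 (edgeR adjusted p = 0.922). With the Xist level these were 0.09 ± 0.28 and 0.05 ± 0.23 (edgeR adjusted p = 0.979 and 0.986). Without single libraries Acta2 ran between -0.02 (without library 1) and 0.23 (without library 12), and Myh11 between 0.02 (without library 2) and 0.20 (without library 12). Library 4, which is C201R by name and WT by title, was the second highest of 12 for Acta2. Cldn5 differed by 0.27 ± 0.14 by title, against 0.15 ± 0.16 by library name (edgeR adjusted p = 0.766), with libraries 11 and 12 at 41.0 and 36.1 CPM counted as C201R. With the Xist level it was 0.13 ± 0.17 (edgeR adjusted p = 0.949). The difference between the 2 groupings was not tested, since they share all libraries.

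Among the 8 undisputed libraries none of the 9 passed, where 0.158% of 18384 genes did. All 9 differences were above 0, against 52.1% of all genes, and their median was 0.26, against 0.01 over all genes. Also above 0 were 12 of 12 meningeal fibroblast genes (median 0.37), 7 of 7 red cell genes (0.85), 9 of 9 adipocyte genes (2.98) and 6 of 6 platelet genes (0.14), and their part was not tested. The adipocyte sum was far highest in C201R library 3, at 675.7 TPM, against 75.9 TPM or less in the others. Groups did not overlap for 2 of the 9, Pdgfrb and Cspg4, which 8.31% of all genes reached. No vascular gene was free of overlap by library name or by title, where 1.64% and 0.349% of all genes were.

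Pdgfrb stood at 36.4, 35.5, 29.35 and 29.7 CPM in undisputed C201R libraries 1, 2, 3 and 10, against 26.1, 28.2, 25.65 and 22.2 CPM in WT libraries 5, 6, 7 and 8. The lowest C201R library lay just above the highest WT library, and libraries 1 and 2 lay well above both. The log2 difference was 0.41 ± 0.08 (edgeR adjusted p = 0.0921). It passed with DESeq2 (0.41, adjusted p = 0.000891) and with no filter on low counts (0.41, edgeR adjusted p = 0.0436). Over all genes 252 and 91 were then called, against 29 in the main fit. With the Xist level in place of titled sex the difference was 0.38 ± 0.12 (edgeR adjusted p = 0.345), and over 16 alternatives adjusted p-values ran between 0.000891 and 0.532.

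Cspg4 stood at 35.8, 38.8, 38.95 and 32.4 CPM in C201R libraries 1, 2, 3 and 10, against 31.3, 29.5, 31.9 and 31.2 CPM in WT libraries 5, 6, 7 and 8. Here library 10 was close to the WT libraries and the other 3 were apart. The log2 difference was 0.23 ± 0.06 (edgeR adjusted p = 0.21). Without library 10 it passed at 0.27 (edgeR adjusted p = 0.0425), with 121 of all genes called, against 29 in the main fit. Over the 16 alternatives its adjusted p-values ran between 0.0425 and 0.634.

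For Acta2 the undisputed groups overlapped, with 21.7, 16.0, 9.72 and 13.6 CPM in C201R libraries 1, 2, 3 and 10, against 9.49, 14.6, 8.93 and 13.3 CPM in WT libraries 5, 6, 7 and 8. Each genotype held high and low libraries. The fitted log2 difference of Acta2 was 0.47 ± 0.22 (edgeR adjusted p = 0.427), and 0.28 ± 0.28 with the Xist level (edgeR adjusted p = 0.817). It was 0.24 without library 1 and 0.70 without library 8. Cldn5 had 37.8, 32.2, 30.7 and 33.3 CPM in those C201R libraries, against 27.75, 23.0, 21.8 and 35.4 CPM in the WT libraries. WT library 8 alone lay among the C201R libraries, and the difference of 0.32 ± 0.15 (edgeR adjusted p = 0.433) was 0.19 ± 0.13 with the Xist level (edgeR adjusted p = 0.727), 0.17 without library 1 and 0.57 without library 8.

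**Figure D2:**
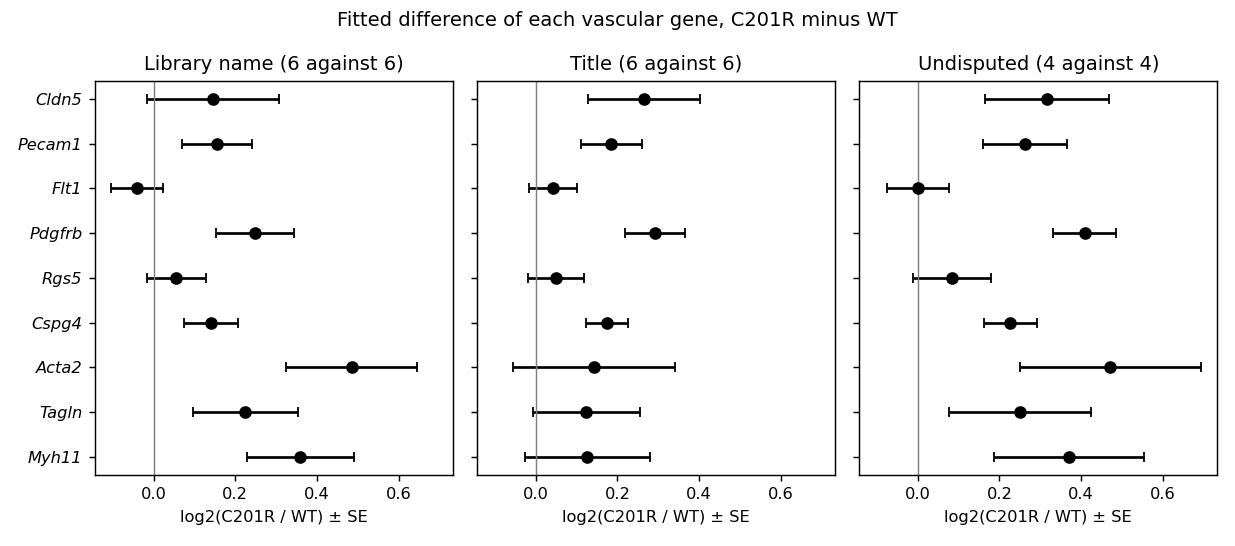
Fitted log2 difference of each vascular gene, C201R minus WT, with its SE (x axes, log2), by library name (6 against 6), by title (6 against 6) and among the undisputed libraries (4 against 4). The 3 groupings share libraries. Acta2 is farthest right by library name at 0.48, Pdgfrb by title at 0.29, and Flt1 lies near 0 in each.

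Along the library number, none of the 9 passed, where 6.38% of all tested genes did (1134 of 17765). Rgs5 had the lowest adjusted p, and its fitted slope was -0.03 ± 0.01 per library on the log2 scale, which comes to -0.33 over 11 steps (edgeR adjusted p = 0.052). In order of library number, 1 to 12, Rgs5 read 170.7, 173.1, 150.8, 147.4, 147.8, 138.7, 146.3, 157.8, 138.3, 127.6, 144.3 and 140.5 CPM. Libraries 1 and 2 were the highest, library 10 the lowest, and the last 4 libraries lay below the first 3. The slope passed with DESeq2 (adjusted p = 0.00416), among genes with a mean above 1 CPM (edgeR adjusted p = 0.0446) and without library 6 (edgeR adjusted p = 0.0218). Under these settings 1590, 1294 and 1684 genes were called in all, more than the 1134 of the main fit. Without libraries 1 to 3 the slope of Rgs5 was -0.01 ± 0.01 (edgeR adjusted p = 0.579), and 0 of all genes were then called, against 1134.

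Cldn5 took another course. In order of library number it read 37.8, 32.2, 30.7, 28.3, 27.75, 23.0, 21.8, 35.4, 39.4, 33.3, 41.0 and 36.1 CPM. Each library of the first 7 was lower than the one before, and all 5 later libraries were above libraries 3 to 7. A straight line gave 0.05 ± 0.02 per library (edgeR adjusted p = 0.231), which does not describe that course. Slopes of the other 7 genes lay between -0.02 and 0.01, with edgeR adjusted p-values of 0.59 or more.

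**Figure D3:**
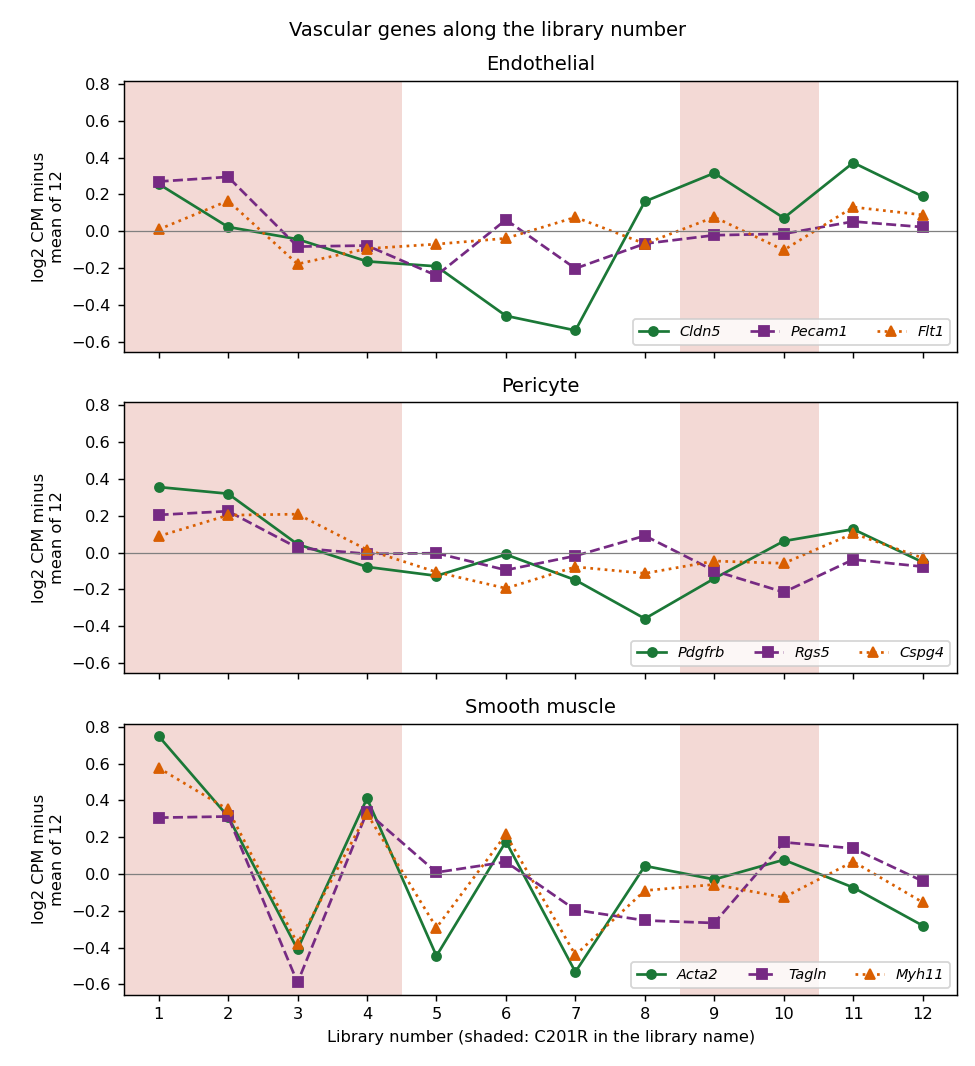
log2 CPM of each vascular gene minus its mean of 12 libraries (y axes) by library number (x axis), with endothelial, pericyte and smooth muscle genes in separate panels and C201R libraries by name shaded. Cldn5 is lowest in library 7 at 21.8 CPM, Rgs5 is highest in library 2 at 173.1 CPM, and the 3 smooth muscle genes share their dip in library 3.

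Smooth muscle genes moved with each other from library to library. In order of library number Acta2 read 21.7, 16.0, 9.72, 17.2, 9.49, 14.6, 8.93, 13.3, 12.65, 13.6, 12.3 and 10.6 CPM. Myh11 read 29.9, 25.6, 15.4, 25.2, 16.4, 23.3, 14.8, 18.8, 19.3, 18.4, 21.01 and 18.02 CPM over the same libraries. Both were highest in library 1 and low in libraries 3, 5 and 7, and their ratio in TPM stayed between 2.29 and 2.94 while Acta2 itself varied 2.47-fold.

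Between Acta2 and Myh11, Pearson's r of log2 CPM was 0.955 (permutation p = 1e-05, the smallest that 100000 resamples give, two-sided, adjusted p = 0.00036 over 36 pairs), and Spearman's rho was 0.916 (permutation adjusted p = 0.00324). Leaving out libraries 1 and 7 gave r = 0.911. Within genotype by library name it was 0.969 in C201R (exact permutation p = 0.00972, n = 6) and 0.926 in WT (exact permutation p = 0.0111, n = 6). Of the 36 pairs all had r above 0, 5 passed on Pearson's r and this pair alone passed on Spearman's rho.

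Tagln and Myh11 had r = 0.765 (permutation adjusted p = 0.0335), or 0.79 without libraries 3 and 9, and rho = 0.713 (permutation adjusted p = 0.0834). Within genotype it was 0.841 in C201R (exact permutation p = 0.0278, n = 6) and 0.579 in WT (exact permutation p = 0.237, n = 6). Acta2 and Tagln had r = 0.699 (permutation adjusted p = 0.0695), with 0.882 in C201R and 0.239 in WT libraries. That WT value was the lowest of the 6 within-genotype values among smooth muscle genes.

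Pecam1 had its highest correlations with pericyte and smooth muscle genes. Its r was 0.804 with Myh11, 0.799 with Pdgfrb and 0.754 with Acta2 (permutation adjusted p = 0.0275, 0.0294 and 0.0361), and its rho was 0.762, 0.72 and 0.671 (permutation adjusted p = 0.0834, 0.0834 and 0.12). Without libraries 1 and 2 these r values were 0.604, 0.441 and 0.558, so they rest in part on that pair of libraries. Within genotype, Pecam1 and Myh11 had 0.723 in C201R and 0.866 in WT (exact permutation p = 0.157 and 0.0361, n = 6 each), Pecam1 and Pdgfrb 0.905 and 0.505 (exact permutation p = 0.0417 and 0.339), and Pecam1 and Acta2 0.658 and 0.775 (exact permutation p = 0.207 and 0.0861). With Cldn5 and Flt1, r of Pecam1 was 0.434 and 0.453 (permutation adjusted p = 0.335 and 0.318). Pdgfrb and Rgs5 had r = 0.421 over all libraries (permutation adjusted p = 0.343), with 0.771 in C201R and -0.798 in WT libraries (exact permutation p = 0.0778 and 0.0736, n = 6 each), and the difference between those 2 values was not tested.

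**Figure D4:**
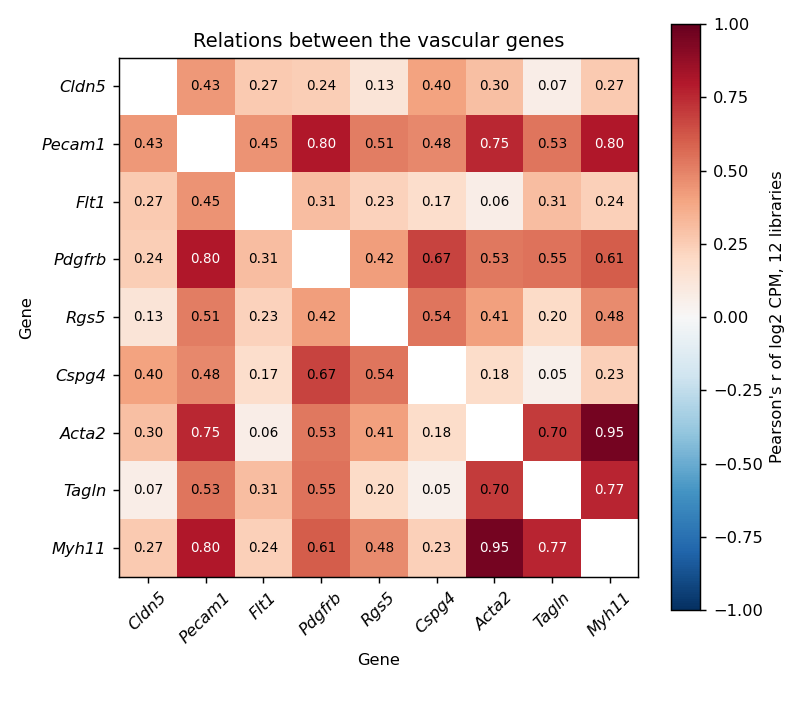
Pearson's r of log2 CPM over 12 libraries for each pair of the 9 vascular genes (colour scale -1 to 1, values in the cells). The highest cell is Acta2 with Myh11 at 0.955, all 36 pairs are above 0, and Cldn5 has no value above 0.434.

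Skeletal muscle genes, which mark tissue outside the cord, varied far more than smooth muscle genes. The summed level of 12 of them ran between 31.2 and 3622 TPM in C201R libraries and 32.5 and 2995 TPM in WT libraries by library name, and none of the 12 was at 0 in any library. Acta2, Tagln and Myh11 summed to 25.6 TPM in library 3, their lowest, where skeletal muscle genes summed to 3622 TPM and 9 adipocyte genes to 675.7 TPM, against 75.9 TPM or less in all other libraries. The 2 did not run opposite ways throughout: library 1 had the highest smooth muscle sum, 52.9 TPM, with 1867 TPM of skeletal muscle genes, and library 2 had 43.5 TPM with 31.2 TPM. Meningeal fibroblast genes (12) summed to 134.2 to 298.1 TPM in C201R and 137.8 to 249.1 TPM in WT libraries, with none at 0. The part of these tissues in the smooth muscle values was not tested. No 75-base window of the Acta2 transcripts was shared with another gene, the skeletal actin gene Acta1 included.

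**Figure D5:**
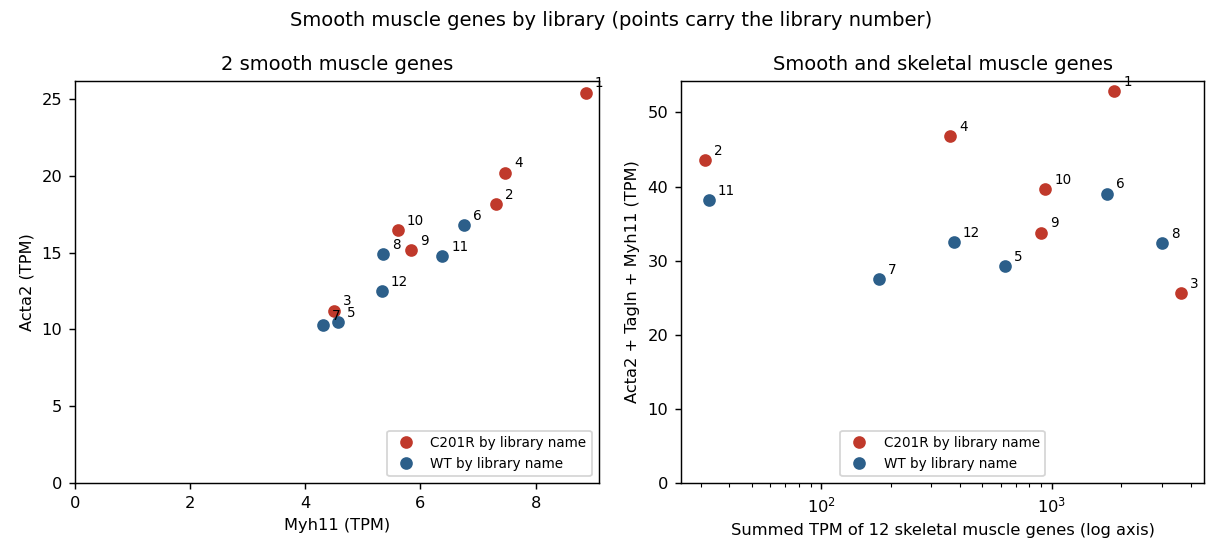
Left, Acta2 against Myh11 in TPM. Right, the sum of Acta2, Tagln and Myh11 in TPM against the sum of 12 skeletal muscle genes in TPM (log axis). Points are the 12 libraries with their numbers, coloured by genotype in the library name. Acta2 and Myh11 lie along 1 line, while the sum is lowest, at 25.6 TPM, in library 3, where skeletal muscle genes are highest.

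Further genes of the same cells were taken from lists. By library name, 0 of 25 endothelial genes passed, 19 lay above 0 and their median log2 difference was 0.04. Of 12 pericyte genes 0 passed, 9 lay above 0 and the median was 0.10. Of 14 further smooth muscle genes 13 were tested, 0 passed, 9 lay above 0 and the median was 0.10, against 0.00 over all genes. By title all 12 pericyte genes lay above 0 with a median of 0.11, again with 0 passing, and 20 of 25 endothelial genes did, against 50.7% of all genes. Several genes of the smooth muscle list (Tpm1, Tpm2, Des, Pln and Mylk) are also expressed in striated muscle.

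Among the endothelial genes, Slc2a1, the GLUT1 glucose transporter of barrier endothelium, fell in the undisputed libraries. It was the 1 of 25 that passed there, while 20 of the 25 lay above 0 (median 0.11). It had 119.2, 125.0, 119.7 and 120.5 CPM in C201R libraries 1, 2, 3 and 10, against 143.1, 150.3, 157.3 and 144.1 CPM in WT libraries 5, 6, 7 and 8. All C201R libraries lay below all WT libraries, in a comparison where the groups of 8.31% of all genes did not overlap. The log2 difference was -0.30 ± 0.04 (edgeR adjusted p = 0.026), where 0.158% of all genes passed. The call was lost under 9 of 16 alternatives, with adjusted p-values up to 0.331, among them the Xist level in place of titled sex (-0.28, edgeR adjusted p = 0.069). Its difference by library name was -0.19 ± 0.06 (edgeR adjusted p = 0.213), with C201R library 9 at 151.6 CPM.

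Other barrier and receptor genes did not pass. Mfsd2a, the lipid transporter of barrier endothelium, had 37.0 ± 4.95 CPM in C201R libraries and 46.6 ± 2.87 CPM in WT libraries by library name (SD, n = 6 each; edgeR adjusted p = 0.108). Kdr, which encodes VEGFR2, had 22.4 ± 2.67 CPM in C201R libraries and 18.2 ± 1.33 CPM in WT libraries by title (SD, n = 6 each; edgeR adjusted p = 0.579). Myl9, whose promoter is shown above, had a log2 difference of 0.21 ± 0.08 by library name (edgeR adjusted p = 0.261).

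Of 23 gene symbols for ligands, receptor partners and transcription factors of these cells, 21 were in the tables and tested. The absent symbols are other names of genes that were found. By library name 1 passed, where 0.715% of all genes did. Pdgfd, which encodes PDGF-D, a ligand of PDGFRβ, fell in C201R libraries. It had 16.3 to 21.25 CPM in C201R libraries and 20.7 to 28.8 CPM in WT libraries. WT libraries 11 and 12, which are C201R by title, stood at 20.7 and 20.9 CPM beside the C201R libraries, and WT libraries 5 to 8 stood between 25.0 and 28.8 CPM. The log2 difference was -0.43 ± 0.08 (edgeR adjusted p = 0.0342), lost under 9 of 22 alternatives with adjusted p-values up to 0.131, among them the Xist level (-0.39, edgeR adjusted p = 0.0588). Its receptor gene Pdgfrb had a difference of 0.25 ± 0.10 in the same comparison, which did not pass. Along the library number Pdgfd had a slope of -0.04 ± 0.01 (edgeR adjusted p = 0.0139), which was 0.00 with no genotype term or with the title genotype and did not pass with the Xist level (edgeR adjusted p = 0.135).

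Along the library number 1 of 25 endothelial genes passed, Slco1a4, an organic anion transporter of barrier endothelium, with a slope of -0.05 ± 0.01 per library (edgeR adjusted p = 0.0254). Of 12 pericyte genes 1 passed, Zic1, with -0.04 ± 0.01 (edgeR adjusted p = 0.0456). Over all genes 6.38% passed, so 1 of 25 and 1 of 12 are near the background. The calls were lost under 11 and 20 of 24 alternatives, the Xist level among them (edgeR adjusted p = 0.0657 for Slco1a4 and 0.3 for Zic1). Of the 25, 12 and 13 tested endothelial, pericyte and smooth muscle genes, 18, 10 and 11 had slopes below 0. Over all genes 49.5% had slopes above 0. Slopes below 0 were also found for 12 of 12 meningeal fibroblast, 12 of 12 skeletal muscle and 7 of 7 red cell genes. By contrast, 7 of 8 Schwann cell and 9 of 11 oligodendrocyte progenitor genes had slopes above 0. The part of these lists in the vascular slopes was not tested. Without libraries 1 to 3 neither call remained (edgeR adjusted p = 0.368 for Slco1a4 and 0.557 for Zic1).

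The genes whose course over the 12 libraries was most like each role were found among 15186 genes with a mean above 1 CPM, as a description. For Cldn5, Pecam1 and Flt1 these were Eng (r = 0.862), which encodes the endothelial TGF-β co-receptor endoglin, Mmp28 (0.834), Eln (0.828), Bsg (0.824) and Fgd5 (0.812). Of list genes, the meningeal fibroblast gene Slc6a13 ranked 10, Kdr ranked 12 and Cdh5, the gene of VE-cadherin, ranked 18. For Pdgfrb and Rgs5 they were Rsad2 (r = 0.952), Klf11 (0.933), Fzd6 (0.928), Reck (0.911) and Gm21846 (0.907). No gene of the pericyte list was among the 5, while the endothelial gene Erg ranked 7 (0.904). Pdgfrb and Rgs5 themselves had r = 0.421 over all libraries and -0.547 without libraries 1 and 2. Their mean course thus rests in part on that pair of libraries.

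For Acta2, Tagln and Myh11 the nearest courses were Mrm1 (r = 0.933), Zfp112 (0.883), Athl1 (0.871), 3110082I17Rik (0.841) and Oasl2 (0.839). Of the smooth muscle list Myl9 ranked 9 (r = 0.823) and Lmod1, which encodes leiomodin-1, ranked 41 (r = 0.757). For Cspg4 alone they were Dusp16 (r = 0.955), Gm20687 (0.927), Rreb1 (0.916), Slc6a6 (0.912) and Tango6 (0.904), with the pericyte gene Atp13a5 at rank 9 (0.876). These correlations share the same libraries, depths and scaling factors.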

How the data were processed

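The 12 polyA libraries of whole spinal cord were read as 75-base pairs. The authors' tables held, per the file headers, RSEM's expected count, TPM and FPKM per gene, with lengths. RSEM 1.2.12 and Bowtie2 2.2.0 are named in the submitters' processing notes. Genome build, annotation and strand setting: not given in the sources used here. Deposited TPM was used for levels and in alternatives, and deposited FPKM was not used. RSEM divides reads that fit several genes, so values of close paralogs and overlapping genes are uncertain; expected counts of 8 members were whole in all 12 libraries.

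After rounding expected counts to whole numbers, filterByExpr (4 titled groups) kept 17765 genes, or 18384 in the 8 undisputed libraries. TMM scaling and edgeR 4.0.16's quasi-likelihood test (R 4.3.3) followed, with titled sex as a term and Benjamini-Hochberg adjustment over all genes tested at a threshold of 0.05. The slope along the library number also carried the library-name genotype. Each SE is the fitted log2 value over √F. CPM are TMM-scaled.

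Alternatives were DESeq2 1.42.0, limma 3.58.1 on log2(TPM + 1) and log2(TPM + 0.1), other scalings, filters and terms, and leaving out each library. The fits without libraries 1 to 3 and with log2(CPM + 0.1) of Xist were chosen after seeing the data. The members and lists were chosen with earlier results of these data known. By the naming rule, members are always named, and of each list those past the threshold (up to 4) or otherwise the 2 of lowest p, together with the 5 genes most like each role. Others (Cdh5, Lmod1, Kdr, Slc6a13, Erg and Atp13a5 by rank, and the striated muscle genes) were named after their values were seen. No 2 of the 66 library pairs agreed within sampling noise (lowest chi-square per degree of freedom 6.21). The fits were tested on simulated data. Permutations and plots were made in Python 3.11.15 (scipy 1.17.1, matplotlib 3.10.9, pandas 2.3.3, numpy 2.4.6).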

Additional observations from a re-analysis of the deposited data

Results flagged for a closer look

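Over 54 groups of values (each of the 9 vascular genes in C201R and in WT libraries under each of 3 groupings), no single library stood apart from its group by Dixon's 95% critical value.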

How the results depend on the processing

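No paired analysis was possible because the groups share no replicate numbers. Of the fitted member differences under other settings, 193 of 198 by library name, 187 of 189 by title, 133 of 144 among undisputed libraries and 195 of 216 along the library number kept their direction and their side of the threshold. The count of members called, 0 in each comparison, was 1 among undisputed libraries with DESeq2, with no filter on low counts (Pdgfrb in both) and without library 10 (Cspg4), so that leaving out libraries gave 0 to 1. Along the number it was 1 with DESeq2, with a mean above 1 CPM and without library 6 (Rgs5 in each), again 0 to 1. All genes called by library name, 127, became 318 with DESeq2, 45 and 34 with limma on log2(TPM + 1) and log2(TPM + 0.1), 235 with the library number as a term, 25 without libraries 1 to 3 and 52 to 209 without single libraries. By title, 0 became 18 with DESeq2 and 8 with the number as a term. Among undisputed libraries, 29 became 252 with DESeq2, 91 with no filter, 9 and 8 with limma, 70 with no sex term and 5 to 121 without single libraries. Along the number, 1134 became 68 with no sex term, 299 with no genotype term, 561 with the title genotype, 4 in the 8 undisputed libraries, 0 without libraries 1 to 3, 62 with the Xist level and 60 to 1684 without single libraries. The cause was not tested.

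Signs turned for small differences. By library name Flt1 was 0.0116 and 0.012 with limma, and Rgs5 was -0.0622 with the number as a term, -0.0856 without libraries 1 to 3 and -0.0121 to 0.1 without single libraries. With the Xist level Rgs5 was -0.0978 by title and -0.0576 among undisputed libraries, and Flt1 was -0.00791 among undisputed libraries. Slopes turned with limma for Pecam1 (0.0148 and 0.0158), Cspg4 (0.00261 and 0.003) and Tagln (0.0095 and 0.0103). Without libraries 1 to 3 they turned for Pecam1 (0.0252), Pdgfrb (0.025) and Cspg4 (0.016), and in the 8 undisputed libraries for Flt1 (-0.0201), Acta2 (0.00283) and Tagln (0.0191). The slope of Pdgfd was 0.00063 with no genotype term and 8.88e-05 with the title genotype. Leaving out single libraries gave -0.0191 to 0.233 for Acta2 by title, -0.0586 to 0.0514 for Flt1 and -0.0153 to 0.153 for Rgs5 among undisputed libraries, and slopes of -0.015 to 0.000731 for Cspg4, -0.013 to 0.00589 for Pecam1 and -0.0206 to 0.0165 for Tagln. No member passed the test in any of these.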

Other observations

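Outside the vessel wall, 3 of 8 neuronal genes passed by library name, all lower in C201R libraries, where 0.715% of all genes passed. Of the 8, 6 lay below 0, with a median log2 difference of -0.06. Nefl and Nefm, which encode the light and medium neurofilament chains, averaged 1643 ± 39.8 and 1788 ± 105.1 CPM in C201R libraries, against 2135 ± 105.2 and 2456 ± 142.6 CPM in WT libraries (SD, n = 6 each; edgeR adjusted p = 0.000144 and 0.000482). Chat, the acetylcholine-synthesising enzyme of motor neurons, averaged 16.9 ± 1.31 CPM in C201R libraries and 23.4 ± 1.67 CPM in WT libraries (edgeR adjusted p = 0.00431). Of 6 astrocyte genes 1 passed and 4 lay below 0, with a median log2 difference of -0.03. The 1 that passed, Slc1a3, a glutamate transporter, rose to 129.1 ± 5.2 CPM in C201R libraries, against 114.0 ± 4.58 CPM in WT libraries (edgeR adjusted p = 0.0398). By title none of Nefl, Nefm, Chat and Slc1a3 passed. Among the undisputed libraries Nefl, Nefm and Chat passed (edgeR adjusted p = 0.00142, 0.00675 and 0.0181), where 0.158% of all genes did. Slc1a3 did not pass there (edgeR adjusted p = 0.217). These lists were chosen with earlier results of these data known.

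Along the library number all 7 tested red cell genes had slopes below 0, and 4 passed, where 6.38% of all genes did. These were Hba-a1, Hbb-bt, Hbb-bs and Alas2, which fell by 0.20 to 0.21 per library on the log2 scale (edgeR adjusted p = 0.0239 to 0.038). The summed level of red cell genes by library name was 2219 to 10100 TPM in C201R libraries, with library 2 highest, and 1516 to 4195 TPM in WT libraries. Of 11 tested oligodendrocyte progenitor genes 9 had slopes above 0 and 1 passed, which is near the background. It was Gpr17, a receptor of committed progenitors, which rose by 0.05 ± 0.01 per library (edgeR adjusted p = 0.0366). Without libraries 1 to 3, 0 of all genes were called along the library number, so none of these red cell and progenitor calls remained. With the Xist level 62 of all genes were called, against 1134 in the main fit.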
